A study of Mus musculus with 17 samples.

Results

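Megalin and cubilin carry filtered protein and vitamins back into the cells of the kidney proximal tubule, and the chromatin around 7 genes of this route was examined in 17 mouse kidneys. The genes were Lrp2, Cubn, Amn, Dab2, Cyp27b1, Cyp24a1 and Vdr, out of 21938 protein-coding genes of the mm10 annotation. They were chosen by their place in the pathway, with earlier results of these data known. Every ATAC-seq summit, the point of greatest openness within a peak, was taken from 10 kb upstream of each gene to its end. ATAC-seq marks open chromatin through the insertion of sequencing adapters by a transposase.

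The kidneys came from 5 wild-type C57BL/6 mice (Ctrl 1 to 5), 6 db/db mice on a BKS background, homozygous for the Leprdb allele (Case 1 to 6) and 6 db/db mice given dapagliflozin (Dapa 7 to 12). db/db mice lack a working leptin receptor and become obese and diabetic, and dapagliflozin blocks the glucose transporter SGLT2 of the proximal tubule. All mice were male. From 8 weeks of age the Dapa mice received 1 mg/kg of dapagliflozin a day for 6 weeks, while Ctrl and Case mice received saline. Strain, the Lepr allele and diabetes all differed between Ctrl and the other groups and cannot be told apart. Each library was made from 20000 cells of 1 kidney sample, and the labels name no batch.

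Megalin, encoded by Lrp2, is a giant receptor on the brush border that binds albumin, vitamin-binding proteins and many hormones. Cubilin, encoded by Cubn, has no membrane span of its own and is held at the surface by amnionless, encoded by Amn. The adaptor Dab2 links the tail of megalin to clathrin and so drives uptake. Megalin delivers 25-hydroxyvitamin D with its binding protein to the tubule cell, where the 1-alpha-hydroxylase Cyp27b1 activates it, the 24-hydroxylase Cyp24a1 inactivates it, and the receptor Vdr answers to the active hormone.

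Summits, not reads, were available, so read depth is unknown, and the number of summits per library stood in for it. The libraries held from 29702 (Case 4) to 56659 (Ctrl 2) summits. Most values below therefore come from the 29702 summits with the highest score in each library, called the equal-length lists, and a summit's strength is given as its rank percentile, the share of its list with the same or a lower score. Case 3 stood apart. Overlap of 2 libraries was taken as the merged summit regions found in both, as a share of those found in either. The mean overlap of Case 3 with the other 16 libraries was 0.300, against 0.371 to 0.492 for the rest. Case 3 also had a summit at the start of 3 of 8 leukocyte genes, against at most 1 elsewhere. No Ctrl mouse had a summit at a leukocyte gene, and the median was 1.00 in both Case and Dapa. Proximal tubule markers had a summit at their start for 8 of 10 genes in every Ctrl mouse, 6 to 8 in Case (median 6.50) and 5 to 9 in Dapa (median 7.00). Endothelial markers had one for 0 or 1 of 5 genes and podocyte markers for 0 to 3 of 5. The podocyte medians were 0 in Ctrl, 1.00 in Case and 0 in Dapa. Of 5 thick limb and distal tubule markers the medians were 2.00, 2.00 and 1.00, and of 5 collecting duct markers 1.00 in each group. In whole-kidney samples, fewer cells of a type and less open chromatin per cell cannot be told apart.

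The promoters of 5 of the genes, each with a summit in at least 15 of 17 libraries, are shown first, because they differed in base composition. Each run below is the 200 bases before the most upstream annotated start of the promoter, read on the strand of the gene from the RefSeq GRCm38.p6 assembly. Capitals mark the GC box GGGCGG on either strand, the only searched motif that matched in these 5 promoters. The other motifs searched on both strands were HNF1 (GTTAATNAT), HNF4 (CAAAGTCCA), AP-1 (TGANTCA), the direct repeat of GGTNA with 3 bases between, which is of the type bound by the vitamin D receptor, and TATAAA.
Lrp2 promoter, chr2:69586066-69586265, minus strand: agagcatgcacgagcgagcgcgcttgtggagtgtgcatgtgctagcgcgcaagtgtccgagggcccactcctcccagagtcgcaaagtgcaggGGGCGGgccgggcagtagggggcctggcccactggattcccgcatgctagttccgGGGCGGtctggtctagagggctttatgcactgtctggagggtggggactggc
Cubn promoter, chr2:13491877-13492076, minus strand: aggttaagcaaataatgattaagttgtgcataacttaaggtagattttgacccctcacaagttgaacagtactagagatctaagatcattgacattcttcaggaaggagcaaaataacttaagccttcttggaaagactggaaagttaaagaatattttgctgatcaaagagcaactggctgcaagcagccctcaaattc
Amn promoter, chr12:111270895-111271094, plus strand: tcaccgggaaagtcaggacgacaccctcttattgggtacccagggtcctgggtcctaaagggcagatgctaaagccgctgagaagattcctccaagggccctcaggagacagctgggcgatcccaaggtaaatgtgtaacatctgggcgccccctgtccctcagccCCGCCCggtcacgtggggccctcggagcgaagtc
Dab2 second promoter, chr15:6386398-6386597, plus strand: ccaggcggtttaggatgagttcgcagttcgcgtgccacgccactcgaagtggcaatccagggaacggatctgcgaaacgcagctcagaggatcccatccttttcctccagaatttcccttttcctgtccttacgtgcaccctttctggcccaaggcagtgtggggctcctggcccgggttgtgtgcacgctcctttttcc
Vdr promoter, chr15:97908311-97908510, minus strand: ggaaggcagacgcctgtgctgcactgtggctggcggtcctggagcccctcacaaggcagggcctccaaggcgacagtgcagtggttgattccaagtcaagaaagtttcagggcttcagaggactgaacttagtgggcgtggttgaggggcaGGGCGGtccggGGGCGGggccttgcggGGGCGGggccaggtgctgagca

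The Lrp2 promoter was 66.0% G and C with 13 CpG pairs and 2 GC boxes. The Vdr promoter was 65.5% G and C with 9 CpG pairs and 3 GC boxes, and the Amn promoter 61.5% with 10 pairs and 1 box. The second Dab2 promoter held 12 CpG pairs at 58.0% G and C and no GC box. The Cubn promoter was the exception among the 5, with 37.0% G and C and 0 CpG pairs. Across 32843 RefSeq promoter entries, the same length before the start had a median of 53.0% G and C and 5.00 CpG pairs, and 31.1% held a GC box. The shares of those entries with the other motifs were 0.639% for HNF1, 0.317% for HNF4, 0.502% for the direct repeat, 5.48% for AP-1 and 9.96% for TATAAA. RefSeq promoter entries were found for 6 of the 7 genes. Cyp24a1 had none, so its promoter is not shown although a summit lay near its start in all 17 libraries.

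All 7 genes had summits in nearly every mouse. In the equal-length lists each window held at least 1 summit in 17 of 17 libraries, except Cubn, which had none in Ctrl 4. That Ctrl 4 summit was present in the full list, 99 bases upstream of the start and at percentile 33.5. Per 100 kb of window, Cubn had the fewest summits of the 7, with a mean of 0.809, and Lrp2 had 2.30. The median over 17109 protein-coding genes was 3.04. The value was 3.55 for Dab2, 7.02 for Vdr, 7.67 for Amn and 7.94 for Cyp24a1. Cyp27b1 had 13.6, but Eef1akmt3 and Mettl1 also start in its window, and the sites at Mettl1 are described with Cyp27b1.

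**Figure D1:**
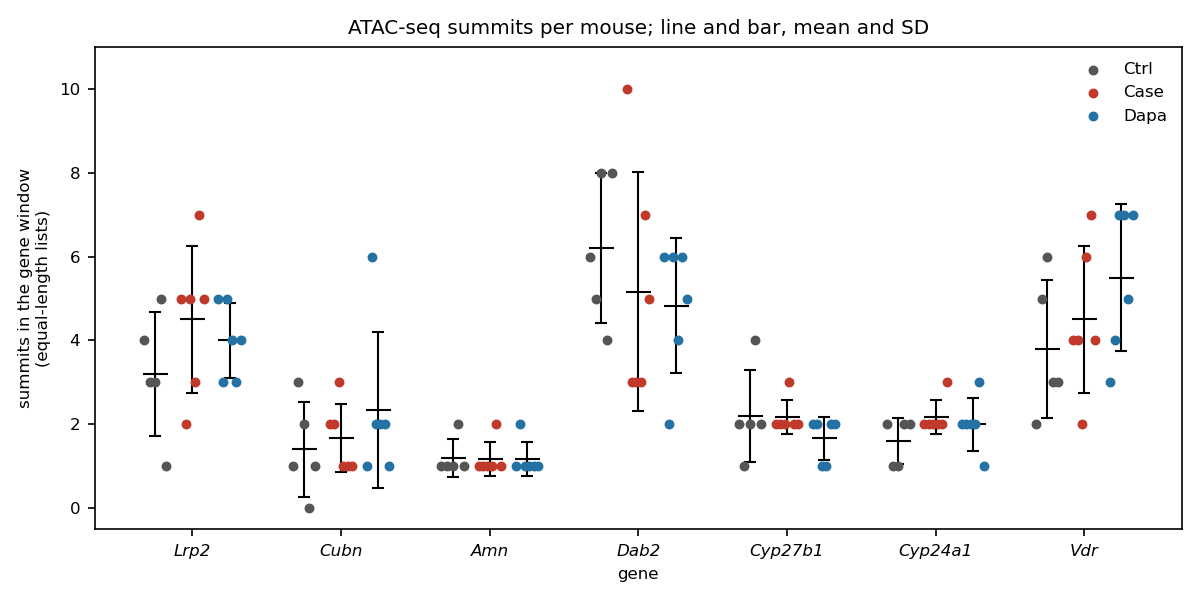
Number of summits of the equal-length lists in each gene window (vertical axis) for each gene and group, with 1 point per mouse and the mean and SD as a line and bar (n = 5 Ctrl, 6 Case and 6 Dapa). The groups overlap for all 7 genes, and Cubn in Dapa 8, at 6 summits, lies above the other Dapa mice.

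The number of summits did not separate the groups for any of the 7 genes. By exact 2-sided permutation tests with Benjamini-Hochberg adjustment over 17109 genes, 0 of the 7 passed an adjusted p of 0.05 in Case vs Ctrl, Dapa vs Case, Dapa vs Ctrl or all 12 db/db mice vs Ctrl, and 0 of the 7 had an unadjusted p under 0.05. Over all genes the share with an unadjusted p under 0.05 was 3.37% for Case vs Ctrl, 0.760% for Dapa vs Case, 2.72% for Dapa vs Ctrl and 4.56% for db/db vs Ctrl, and 0 genes passed the adjusted threshold in any of these. The smallest p these tests can give is 0.00433 for 5 against 6 mice, 0.00216 for 6 against 6 and 0.000323 for 5 against 12. The comparisons share mice, so their values are not independent of each other.

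Merging summits across libraries, each extended by 250 bp to both sides, gave 52371 regions found in at least 2 libraries, of which 39 lay in the 7 windows. Of these 39, 4 were found in all 17 libraries, or 10.3%, against 15.0% of all regions. The median member region was found in 9.00 libraries, against 6.00 for all. Below, a region is called a site and named by the distance of its median summit from the start of the gene, with a minus sign for upstream, and a library without a summit there counts as percentile 0. The 21 sites found in at least 9 libraries or with an unadjusted p under 0.05 in any comparison are described one by one.

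**Figure D2:**
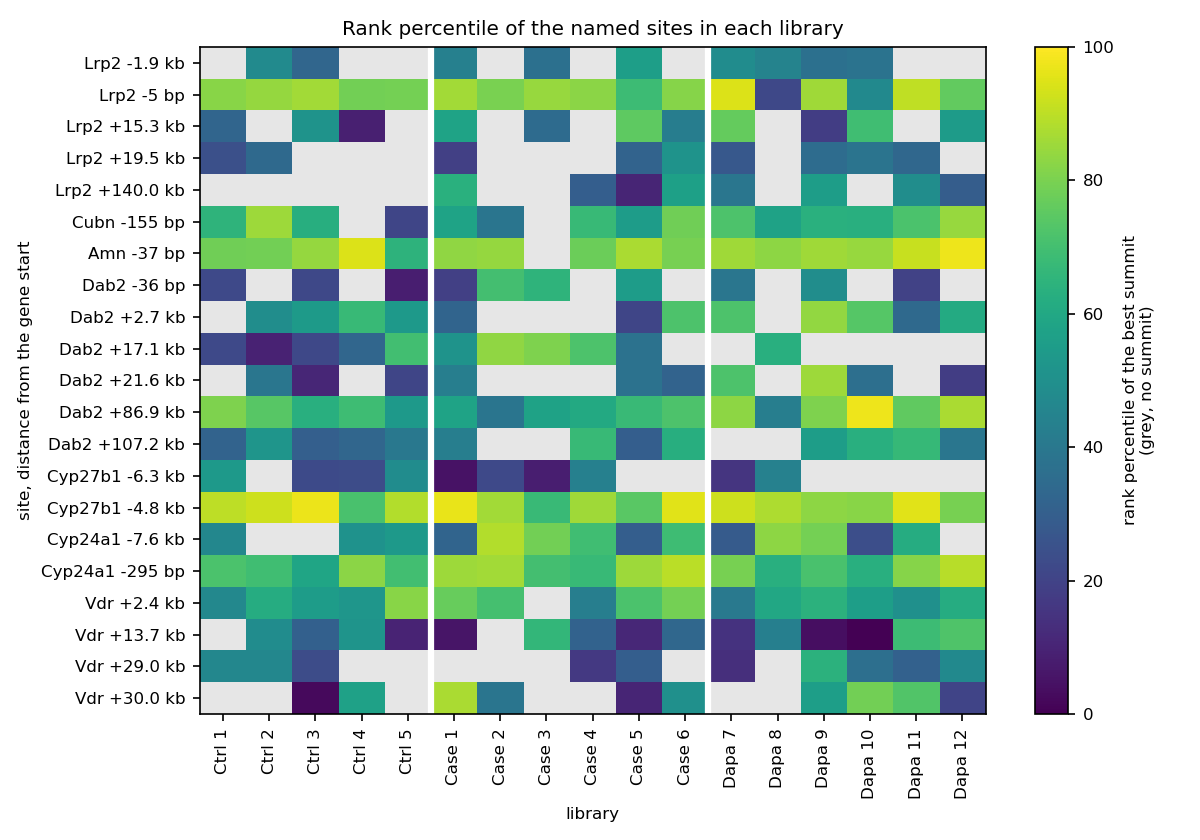
Rank percentile of the best summit (colour, 0 to 100) at the 21 described sites (rows, by distance from the gene start) in the 17 libraries (columns, white lines between groups), with grey for no summit. The Lrp2 start, the second Dab2 promoter, Cyp27b1 -4.8 kb and Cyp24a1 -295 bp are filled in every library, and Case 3 is grey at the Cubn, Amn and Vdr promoters.

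Lrp2 (ENSMUSG00000027070.14, chr2:69424340-69586065, minus strand) had 4, 3, 3, 5 and 1 summits in Ctrl 1 to 5. The Case mice had 5, 2, 5, 3, 7 and 5 and the Dapa mice 5, 3, 5, 4, 3 and 4. The groups overlapped, and the means were 3.20 ± 1.48 (SD, n = 5) in Ctrl, 4.50 ± 1.76 (n = 6) in Case and 4.00 ± 0.894 (n = 6) in Dapa. The difference of 1.30 between Case and Ctrl had an exact permutation p of 0.307 (adjusted p = 1.00), and was 0.750 without Ctrl 5 and 0.800 without Case 5. With all summits instead, the means were 5.20, 4.83 and 5.33, and Case no longer lay above Ctrl.

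Megalin's own promoter was open in every mouse. At chr2:69585081-69586428, 5 bases upstream of the start, the percentile was 82.3, 84.1, 86.3, 78.8 and 79.1 in Ctrl 1 to 5. In Case mice it ran from 68.7 through a median of 82.3 to 86.0, and in Dapa mice from 21.5 through 80.9 to 94.8. The low Dapa values were 21.5 in Dapa 8 and 47.4 in Dapa 10, and of the remaining 4 Dapa mice 2 lay above every Ctrl mouse, 1 within their range and 1 below it. No comparison of this site had an exact permutation p under 0.05, the smallest being 0.429 for Dapa vs Case.

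Around and inside the megalin gene 3 more sites recurred. The site at -1.94 kb was found in 2 of the 5 Ctrl, 3 of the 6 Case and 4 of the 6 Dapa mice, with 38.5% of its central 200 bases marked as repeats by the assembly. The intronic site at +15.3 kb was found in 3 Ctrl, 4 Case and 4 Dapa mice and the one at +19.5 kb in 2, 3 and 4. The highest percentile at +15.3 kb was 76.4, in Dapa 7. None of these 3 sites differed between groups at an unadjusted p under 0.05 in the equal-length lists. In the full lists the -1.94 kb site was found in 2 Ctrl, 3 Case and 6 Dapa mice. Dapa 11 and Dapa 12 were added there at percentiles 13.2 and 1.43. The full-list counts were 4, 4 and 5 at +15.3 kb and 3, 3 and 5 at +19.5 kb.

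The last Lrp2 site lay deep in the gene, at +140 kb (chr2:69445831-69446432, intron), and its sequence is shown because it was absent from the equal-length list of every Ctrl mouse. The run is the 200 bases around its median summit on the strand of the gene, with capitals at an AP-1 match and an HNF4 match.
Lrp2 intronic site, chr2:69446010-69446209, minus strand: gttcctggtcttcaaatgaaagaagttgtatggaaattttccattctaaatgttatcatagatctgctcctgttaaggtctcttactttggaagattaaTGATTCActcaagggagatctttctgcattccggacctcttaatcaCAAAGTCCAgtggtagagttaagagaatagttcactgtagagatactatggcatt
AP-1 letters were held by 6.77% of all 52362 regions with a full sequence of this length, and HNF4 letters by 1.90%. A match is a description of the letters and no evidence of binding.

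The +140 kb site was at percentile 0 in all 5 Ctrl mice. In Case 1 to 6 it was at 63.6, 0, 0, 30.0, 10.4 and 56.9, and in Dapa 7 to 12 at 39.1, 0, 55.5, 0, 49.0 and 29.3. It was thus found in 4 of 6 Case and 4 of 6 Dapa mice, and the 4 db/db mice without it matched Ctrl. The mean was 27.8 ± 25.0 (SD, n = 12) in db/db mice and 0 in Ctrl, a difference with an exact permutation p of 0.0407 and an adjusted p of 0.434. Presence gave a Fisher's exact p of 0.0294 (adjusted p = 0.387). Case and Dapa differed by 2.02 percentile points (exact permutation p = 0.909). The proximal tubule and leukocyte markers given above had other medians in Case and Dapa than in Ctrl, and their part in this difference was not tested.

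The absence in Ctrl was a matter of list length for 1 mouse. In the full lists Ctrl 1 had a summit at the +140 kb site, at percentile 28.3, so the counts became 1 of 5, 4 of 6 and 4 of 6. In lists cut to 14851 summits the difference between db/db and Ctrl fell to 4.34 (exact permutation p = 0.647). The percentile test called 10.2% of all 52371 regions at an unadjusted p under 0.05 in db/db vs Ctrl, and presence called 9.29% of 27403 regions. For presence 20 of the 39 member regions could be tested there and 1 was called. The 1 of 39 and 1 of 20 member regions called are lower shares than these.

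**Figure D3:**
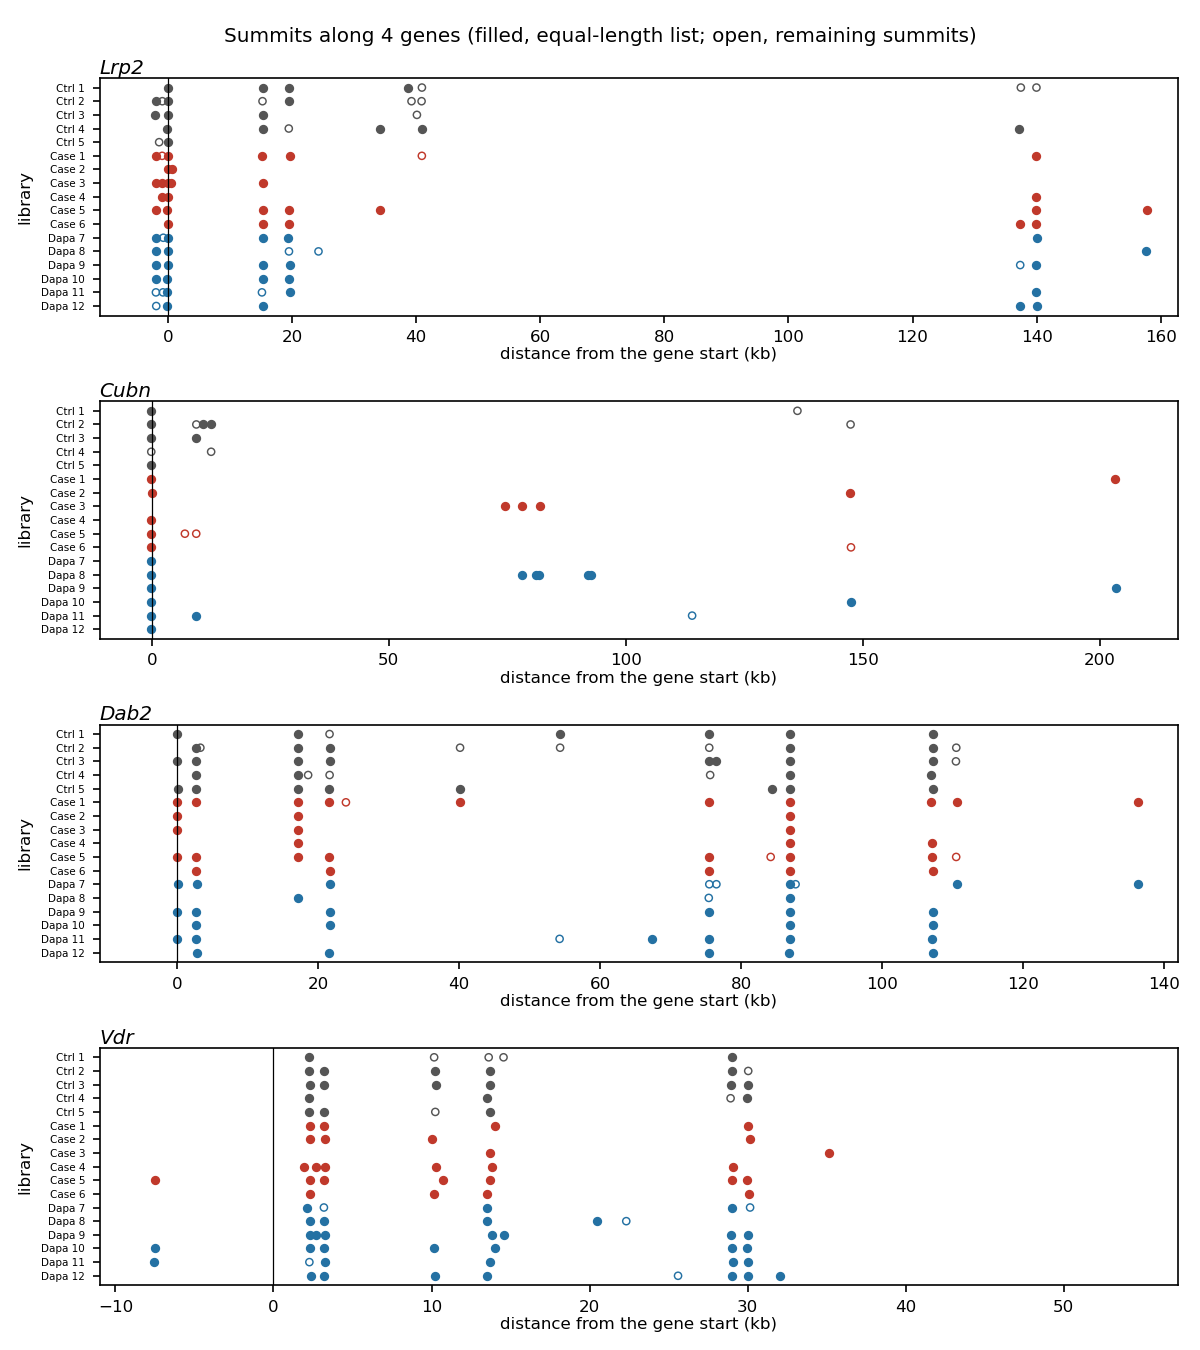
Position of every summit along Lrp2, Cubn, Dab2 and Vdr, as the distance from the gene start in kb (horizontal axis), in each library (rows, coloured by group), with filled points for the equal-length list and open points for the remaining summits. Columns of points mark recurring sites, such as the Lrp2 site at +140 kb, filled only in Case and Dapa mice (the filled point of Ctrl 4 lies at the separate site at +137 kb). In Cubn the start is the only column shared by most libraries, and the points in the body of the gene are scattered.

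Cubn (ENSMUSG00000026726.10, chr2:13276338-13491813, minus strand) had a single site found in more than 2 libraries, its promoter. The equal-length lists held 1, 3, 2, 0 and 1 summits in Ctrl 1 to 5. Case mice held 2, 2, 3, 1, 1 and 1, and Dapa mice 1, 6, 2, 2, 2 and 1. The groups overlapped, with means of 1.40 ± 1.14 (SD, n = 5), 1.67 ± 0.816 (n = 6) and 2.33 ± 1.86 (n = 6). The 6 summits of Dapa 8 set the Dapa mean, since the Dapa vs Case difference of 0.667 became -0.0667 without that mouse.

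The cubilin promoter site, 155 bases upstream of the start at chr2:13491565-13492289, was found in 4 of the 5 Ctrl, 5 of the 6 Case and 6 of the 6 Dapa mice. Its percentile was 64.9, 85.2, 62.8, 0 and 20.8 in Ctrl 1 to 5 and ran from 0 through a median of 56.5 to 78.5 in Case and from 57.8 through 67.5 to 84.7 in Dapa. The mice without a summit were Ctrl 4, which had one in its full list, and Case 3, which had none there either. The Dapa vs Case difference was 19.1 percentile points with an exact permutation p of 0.126 (adjusted p = 1.00), and 9.17 points without Case 3 (exact permutation p = 0.251).

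The libraries that stood apart at cubilin did so inside the gene. The other 5 Cubn sites were intronic and each was found in 2 libraries. Those at +78.1 kb and +81.9 kb were both found in Case 3, at percentiles 79.0 and 89.2, and in Dapa 8, at 57.8 and 62.9, and in no other library. Case 3, with no promoter summit, thus had strong summits in the body of the gene. The mean overlap with the other libraries was 0.300 in Case 3 and 0.414 in Dapa 8, and whether this bears on these sites was not tested.

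Amn (ENSMUSG00000021278.7, chr12:111271095-111276426, plus strand) had 1 summit in most mice. It had 2 in Ctrl 4, Case 5 and Dapa 8 and 1 in each of the other 14 libraries, with means of 1.20 ± 0.447 (SD, n = 5), 1.17 ± 0.408 (n = 6) and 1.17 ± 0.408 (n = 6). The promoter site, 37 bases upstream of the start at chr12:111270757-111271332, was found in 16 of 17 libraries.

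Its strength in Ctrl 1 to 5 was at percentile 78.2, 78.7, 84.2, 94.9 and 64.5. Case 1 to 6 were at 83.5, 84.3, 0, 77.5, 87.4 and 79.6, and Dapa 7 to 12 at 85.7, 83.0, 85.8, 84.7, 91.7 and 97.4. Case 3, without a summit, lay far below the rest, and the other Case mice overlapped both groups. The Dapa mean of 88.0 ± 5.46 (SD, n = 6) was 19.3 points above the Case mean of 68.7 ± 33.9 (n = 6), with an exact permutation p of 0.0476 and an adjusted p of 1.00. Without Case 3 the difference was 5.57 points (exact permutation p = 0.0952). In the full lists, with Case 3 kept, it was 19.7 points (exact permutation p = 0.0563). Amnionless in Case 3 was represented only by a weak summit at -2806 bases from the start, at percentile 3.18.

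Dab2 (ENSMUSG00000022150.16, chr15:6299788-6440712, plus strand) had the most summits of the 7 genes over all 17 mice, with a mean of 5.35 against 4.65 for Vdr, although Vdr had more in Dapa. The Dab2 means were 6.20 ± 1.79 (SD, n = 5) in Ctrl, 5.17 ± 2.86 (n = 6) in Case and 4.83 ± 1.60 (n = 6) in Dapa. The numbers were 6, 5, 8, 4 and 8 in Ctrl 1 to 5, 10, 3, 3, 3, 7 and 5 in Case and 6, 2, 6, 4, 6 and 5 in Dapa. Case 2, 3 and 4 and Dapa 8 had the fewest, and the groups overlapped. The Dapa vs Ctrl difference of -1.37 had an exact permutation p of 0.286.

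The adaptor gene was open at 2 promoters that behaved differently. The upstream one, at -36 bases (chr15:6299464-6300131), was found in 3 of the 5 Ctrl, 4 of the 6 Case and 3 of the 6 Dapa mice, and its highest percentile was 70.0, in Case 2. The second promoter, at +86.9 kb (chr15:6386395-6387023), was found in all 17. It was at 80.6, 74.1, 63.0, 69.1 and 53.6 in Ctrl 1 to 5. In Case it ran from 39.0 through a median of 59.3 to 71.9 and in Dapa from 42.8 through 81.8 to 97.6. Dapa 8 was the lowest Dapa mouse and the other 5 lay above every Case mouse, yet the difference of 18.6 points between these groups had an exact permutation p of 0.0649 (adjusted p = 1.00).

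The intronic Dab2 site at +17.1 kb was the member site with the largest difference between Dapa and Case. The assembly marked 33.5% of its central 200 bases as repeats, and whether this bears on its level was not tested. Of the 39 member regions, 24 had no such base around their median summit.

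The +17.1 kb site was at percentile 22.0, 9.61, 21.6, 33.1 and 69.9 in Ctrl 1 to 5. In Case 1 to 6 it was at 51.3, 83.3, 80.5, 72.1, 37.5 and 0, and in Dapa 7 to 12 at 0, 62.9, 0, 0, 0 and 0. It was thus found in 5 of the 5 Ctrl, 5 of the 6 Case and 1 of the 6 Dapa mice, and the same mice had it in the full lists. Only Case 6 and Dapa 8 kept the Case and Dapa mice from separating.

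The Dapa mean at +17.1 kb, 10.5 ± 25.7 (SD, n = 6), lay below the Case mean of 54.1 ± 31.9 (n = 6), a difference of -43.6 points with an exact permutation p of 0.0411 and an adjusted p of 1.00. Presence in Dapa against Ctrl gave a Fisher's exact p of 0.0152 (adjusted p = 0.191), and against Case 0.0801. The percentile in Dapa differed from that in Ctrl by -20.8 points (exact permutation p = 0.195, adjusted p = 0.970). The proximal tubule, thick limb and leukocyte marker medians also differed between Dapa and Ctrl, and their part in the presence of this site was not tested. In the full lists the Dapa vs Case difference was -48.4 points (exact permutation p = 0.0541). In lists cut to 14851 summits it was -24.3 (exact permutation p = 0.182). The percentile test called 2.13% of all regions at an unadjusted p under 0.05 in Dapa vs Case, and 2 of the 39 member regions, this one and the Amn promoter. Presence called 7.91% of 10867 regions in Dapa vs Ctrl, and 1 of the 11 member regions that could be tested.

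The intronic Dab2 sites at +2.70, +21.6 and +107 kb were found in other sets of mice than the +17.1 kb site. The site at +2.70 kb was found in 4 of the 5 Ctrl, 3 of the 6 Case and 5 of the 6 Dapa mice, and the one at +21.6 kb in 3, 3 and 4. The +2.70 kb site was missing in 5 libraries, Ctrl 1, Case 2, 3 and 4 and Dapa 8, all of which had the +17.1 kb site. Its Dapa mean of 54.1 ± 31.5 (SD, n = 6) lay 33.3 points above the Case mean of 20.8 ± 28.4 (n = 6), with an exact permutation p of 0.0736. The site at +107 kb was found in 5, 4 and 4 mice, and its exact permutation p-values were 0.801 or more.

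**Figure D4:**
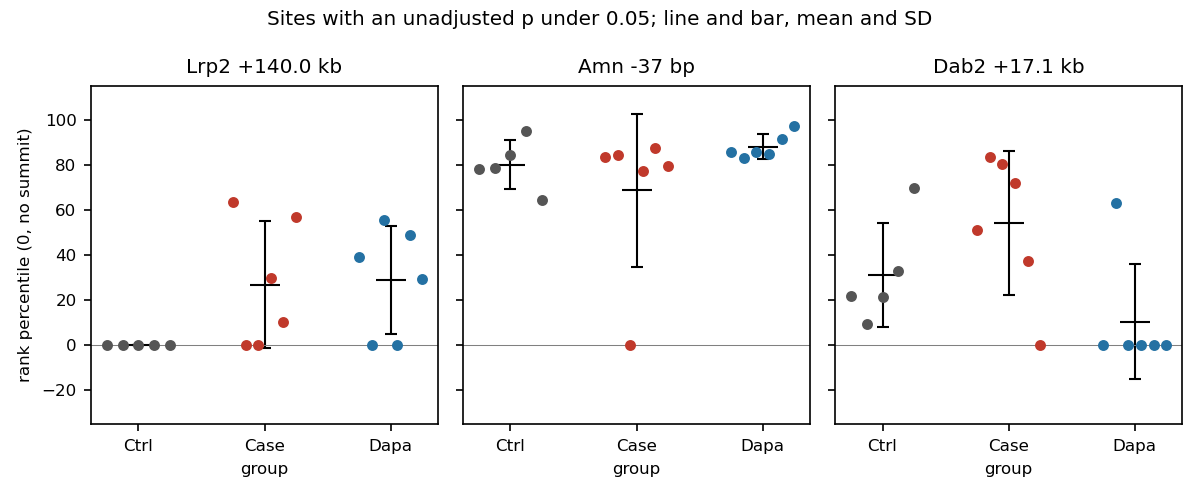
Rank percentile (vertical axis, 0 for no summit) of the 3 member sites with an unadjusted p under 0.05 in any comparison, with 1 point per mouse and the mean and SD as a line and bar (n = 5 Ctrl, 6 Case and 6 Dapa). All Ctrl mice are at 0 for the Lrp2 site, 1 Case mouse is at 0 for the Amn promoter, and 5 of 6 Dapa mice are at 0 for the Dab2 site.

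Cyp27b1 (ENSMUSG00000006724.12, chr10:127048250-127053006, plus strand) had few summits inside the gene itself in the equal-length lists. Its window held 2, 1, 2, 4 and 2 summits in Ctrl 1 to 5, 2, 2, 2, 3, 2 and 2 in Case and 2, 2, 1, 1, 2 and 2 in Dapa. The strongest summit in every library lay at -4.84 kb (chr10:127043037-127043798), in the body of Mettl1 and 1431 bases from the start of that gene. Its percentile was 71.3 to 97.0 in Ctrl, 67.7 to 96.5 in Case and 79.6 to 95.5 in Dapa.

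A further site in the Cyp27b1 window, at -6.34 kb, lay 21 bases from the start of Mettl1 and was found in 4 of the 5 Ctrl, 4 of the 6 Case and 2 of the 6 Dapa mice. Within Cyp27b1, whose product activates vitamin D, a site at +497 bases was found in 1 mouse of each group and one at +1.70 kb in 1 Ctrl, 2 Case and 1 Dapa mouse, neither above percentile 37.5. In the full lists the first was found in 2 Ctrl, 1 Case and 1 Dapa mouse and the second in 3 Ctrl, 3 Case and 2 Dapa mice. With summits near the starts of other genes left out, the Case vs Ctrl difference in summit number was 0.100, against -0.0333 with them.

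Cyp24a1 (ENSMUSG00000038567.5, chr2:170482708-170497145, minus strand) had 2, 1, 1, 2 and 2 summits in Ctrl 1 to 5, 2, 2, 2, 2, 2 and 3 in Case and 2, 2, 2, 2, 3 and 1 in Dapa. The site 295 bases upstream of its start (chr2:170497043-170497748) was found in all 17 libraries. It also lies within Pfdn4, a prefoldin subunit gene on the other strand, 1012 bases from the start of that gene. Its percentile was 71.7, 69.3, 58.7, 82.7 and 69.9 in Ctrl 1 to 5 and ran from 67.2 through a median of 85.3 to 89.7 in Case and from 62.9 through 75.3 to 89.1 in Dapa. The Case vs Ctrl difference of 10.2 points had an exact permutation p of 0.104 (adjusted p = 0.744).

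The site at -7.61 kb of the inactivating hydroxylase, also inside Pfdn4, was found in 3 of the 5 Ctrl, 6 of the 6 Case and 5 of the 6 Dapa mice. It was at percentile 46.3, 0, 0, 51.1 and 53.6 in Ctrl 1 to 5, while Case ran from 29.9 through a median of 69.1 to 88.5 and Dapa from 0 through 45.3 to 83.2. The Case mean of 61.3 ± 24.5 (SD, n = 6) was 31.1 points above the Ctrl mean of 30.2 ± 27.7 (n = 5), with an exact permutation p of 0.0866 and an adjusted p of 0.744.

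Vdr (ENSMUSG00000022479.15, chr15:97854425-97910630, minus strand) had 2, 5, 6, 3 and 3 summits in Ctrl 1 to 5, 4, 4, 2, 6, 7 and 4 in Case and 3, 4, 7, 7, 5 and 7 in Dapa. The means were 3.80 ± 1.64 (SD, n = 5), 4.50 ± 1.76 (n = 6) and 5.50 ± 1.76 (n = 6). The 1.70 more summits in Dapa than in Ctrl had an exact permutation p of 0.177 (adjusted p = 1.00). It was the smallest for summit number among the 7 genes in the equal-length lists. With all summits the smallest exact permutation p was 0.0736, for Dab2 in Dapa vs Ctrl.

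The vitamin D receptor had its main open site at +2.38 kb (chr15:97907121-97908921), 64 bases from an annotated start. It was found in every mouse but Case 3. Its percentile was 46.6, 62.0, 55.3, 52.4 and 82.2 in Ctrl 1 to 5 and ran from 0 through a median of 71.0 to 79.0 in Case and from 40.6 through 58.2 to 64.2 in Dapa. The Dapa vs Case difference was -1.19 points, and -12.5 points without Case 3 (exact permutation p = 0.121). Deeper sites were more variable. The one at +13.7 kb lay 107 bases from another annotated start of Vdr. It was found in 4 of the 5 Ctrl, 5 of the 6 Case and 6 of the 6 Dapa mice. The site at +29.0 kb was found in 3, 2 and 5 and the one at +30.0 kb in 2, 4 and 4. At +29.0 kb the Dapa mean of 32.2 ± 23.1 (SD, n = 6) was 24.4 points above the Case mean of 7.78 ± 12.7 (n = 6), with an exact permutation p of 0.0541 (adjusted p = 1.00).

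Counting all member regions, the rank percentile gave an unadjusted p under 0.05 for 0 of 39 in Case vs Ctrl, 2 in Dapa vs Case, 0 in Dapa vs Ctrl and 1 in db/db vs Ctrl. Over all regions the shares were 8.00%, 2.13%, 7.61% and 10.2%. Presence gave 0 of 11 member regions tested in Case vs Ctrl, 0 of 9 in Dapa vs Case, 1 of 11 in Dapa vs Ctrl and 1 of 20 in db/db vs Ctrl, against 10.2%, 1.18%, 7.91% and 9.29% of all regions tested. By the exact permutation and Fisher's exact tests, 0 member regions and 0 of all regions passed an adjusted p of 0.05 in any comparison.

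Other genes of the route were counted in 3 lists. Of 14 genes of the endocytic machinery, 0 passed the adjusted threshold for summit number in any comparison and 1 was lower in Dapa than in Ctrl at an unadjusted p, where 2.72% of all genes were called in either direction. This was Ocrl, the phosphatase gene mutated in Lowe syndrome, with 1, 1, 1, 0 and 1 summits in Ctrl 1 to 5 and none in any Dapa mouse (exact permutation p = 0.0303, adjusted p = 1.00). Its 6 Case mice had 0, 0, 1, 1, 0 and 0. The median difference over the list was between -0.0500 and 0 in the 4 comparisons, and 0 over all genes.

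Of 10 carriers and receptors of vitamins and proteins, 6 could be tested, since Gc, Rbp4, Ttr and Cblif had a summit in fewer than 2 libraries. Lmbrd1, which exports vitamin B12 from lysosomes, had 3, 4, 4, 3 and 3 summits in Ctrl 1 to 5. Case mice had 3, 2, 2, 2, 2 and 3 and Dapa mice 2 each, so that 10 of 12 db/db mice lay below every Ctrl mouse. The db/db vs Ctrl difference of -1.23 had an exact permutation p of 0.00323 and an adjusted p of 0.568. Of the 6 tested it was the 1 called in this comparison, against 4.56% of all genes, 616 of those 780 being lower in db/db mice. Of 11 genes of vitamin D synthesis, control and response, 10 could be tested, all but Trpv6. Cyp2r1, a 25-hydroxylase of vitamin D, had 1 summit in each Ctrl mouse, in 4 of 6 Case mice and in 1 of 6 Dapa mice. The exact permutation p was 0.0260 for Dapa vs Ctrl (adjusted p = 1.00) and 0.242 for Dapa vs Case. Cyp2r1 was the 1 gene of these 10 called in Dapa vs Ctrl, against 2.72% of all genes, 339 of those 465 being lower in Dapa. Proximal tubule markers were fewer in median and leukocyte markers more in Case and Dapa than in Ctrl, and their part in these differences was not tested.

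Summit numbers of the 7 genes showed no strong positive correlation with each other across libraries. The numbers are small and often tied, Amn having 1 or 2 in every library. Low correlations therefore cannot show that the genes vary separately. Spearman correlations of summit number between pairs of members over 17 libraries ran from -0.558 for Cubn and Cyp27b1 to 0.353 for Amn and Cyp27b1, and that of Lrp2 with Cubn was -0.269. Most like Lrp2 among 11482 genes were Nadk (0.808), Steap3 (0.774) and Rnf141 (0.761). Most like Dab2 were Slc22a6 (0.826), Rgl1 (0.817) and Crispld2 (0.815), and most like Cubn were Gmpr (0.831), Dock5 (0.733) and Tmco6 (0.716). These are the highest values among many genes, over libraries that share list length and tissue, and are given as a description.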

How the data were processed

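ATAC-seq was measured in 17 mouse kidney libraries (5 Ctrl, 6 Case, 6 Dapa). The authors aligned reads to mm10 with Bowtie2 under the pipeline of ENCODE, dropped duplicate reads and those in blacklisted regions, shifted reads by +4 and -5 bases and called peaks in each library with MACS2. DiffBind and HOMER are also named in the submitters' processing notes, and versions of Bowtie2, MACS2 and DiffBind are not given in the sources used here. The deposited files list summits with a −log10 score. Whether it is of a p or a q value, and how reads that map to several places were treated, is not stated, and the latter can change the score of a repeat. Without counts DiffBind could not be run, so read depth is unknown, and only the rank within a library was compared between mice.

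The 29702 highest-scoring summits of each library (the length of the shortest list) were counted from 10 kb upstream to the end of each gene in GENCODE M21 and, extended by 250 bp to each side, merged into regions found in at least 2 libraries. Groups were compared over mice with exact 2-sided permutation tests (summit number, rank percentile) and 2-sided Fisher's exact tests (presence, where the totals allow p under 0.05), with Benjamini-Hochberg adjustment over all genes or regions. Whether the mice are independent beyond being separate samples is not stated, and p-values measure only the spread between them. All 7 genes were named, with sites found in at least 9 of 17 libraries or with an unadjusted p under 0.05, up to 3 genes per direction of 3 pathway lists, and the 3 genes most like Lrp2, Cubn and Dab2. Members and lists were chosen with earlier results of these data known. Alternatives were full lists, lists of 14851, leaving out each mouse, a window from 2 kb upstream, leaving out summits within 1 kb of other starts, extending by 100 or 500 bp, requiring 3 libraries per region, and a replicate block. The tests were checked on simulated data. Python 3.11.15, numpy 2.4.6, scipy 1.17.1, pandas 2.3.3, pysam 0.24.0 and matplotlib 3.10.9 were used. The sequence of 1 intronic Dab2 site is not reported here.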

Additional observations from a re-analysis of the deposited data

Results flagged for a closer look

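Of 42 groups of member values examined, 7 had 1 mouse far from the others of its group. Chance would give about 2.10 for continuous values, but 6 of the 7 were whole summit numbers, for which that figure does not hold: where all other mice share 1 number, any mouse with another number stands out. Cubn had 6 summits in Dapa 8, against 1 or 2 in the other Dapa mice. Amn had 2 summits in Ctrl 4, in Case 5 and in Dapa 8, against 1 in every other mouse of these groups. The best Amn percentile was 3.18 in Case 3, the library without a summit at the Amn promoter. Cyp27b1 had 3 summits in Case 4 and Cyp24a1 had 3 in Case 6, against 2 in the other Case mice.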

How the results depend on the processing

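The counts of member genes and regions past an adjusted p of 0.05 were 0 in the main analysis and in all 278 alternatives. Part of these counts could only be 0 and cannot show stability. In the main analysis no member gene could be tested for presence of a summit, because the totals did not allow p under 0.05. The replicate block cannot give an exact p below 0.0625. Of 532 alternatives for single genes and sites, 27 changed direction and the other 505 did not, although some of these fell to 0 or left it. All 27 were for differences in summit number that did not pass the test; the cause was not tested. With full lists the Case vs Ctrl difference was -0.367 for Lrp2, -0.233 for Cubn, 0.300 for Amn and -0.500 for Vdr, the Dapa vs Case difference 0.500 for Lrp2, and the db/db vs Ctrl difference -0.117 for Lrp2, -0.0667 for Cubn and 0.133 for Amn. With lists of 14851 Dab2 differed by 0.667 in Case vs Ctrl, 0.167 in Dapa vs Case, 0.833 in Dapa vs Ctrl and 0.750 in db/db vs Ctrl. With the window from 2 kb upstream, and equally without summits near other starts, Cyp27b1 differed by 0.100 in Case vs Ctrl and 0.0167 in db/db vs Ctrl.

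Leaving out 1 mouse gave ranges that cross 0. In Case vs Ctrl they were -0.0833 to 0.667 for Cubn, -0.200 to 0.167 for Amn and -0.333 to 0.417 for Cyp27b1, each turned by Ctrl 4. In Dapa vs Case they were -0.0667 to 0.933 for Cubn, turned by Dapa 8, -0.767 to 0.633 for Dab2, turned by Case 1, Case 5 or Dapa 8, and -0.367 to 0.0333 for Cyp24a1, turned by Dapa 12. For Amn they were -0.200 to 0.167 in Dapa vs Ctrl and -0.109 to 0.167 in db/db vs Ctrl, and for Cyp27b1 -0.583 to 0.167 in db/db vs Ctrl, each turned by Ctrl 4. The unadjusted exact permutation p ran from 0.0256 to 0.0769 for the Lrp2 +140 kb site and from 0.0130 to 0.0823 for the Dab2 +17.1 kb site.

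With the replicate block, which pairs Ctrl 1 to 5 with Case 1 to 5, 0 member genes and 0 member regions passed, and the paired differences in summit number were 1.20 for Lrp2, 0.400 for Cubn, 0 for Amn, -1.0 for Dab2, 0 for Cyp27b1, 0.400 for Cyp24a1 and 0.800 for Vdr. The block cannot give an exact p below 0.0625 with 5 pairs. Same-numbered mice did not deviate together (correlations across regions of -0.0569 to 0.00577, 0 of 5 best with their own number). These values do not mark them as pairs, and whether they share more than a number is not stated.

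Depth is unknown, so a site missing from a list was not shown to be closed.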
